A study of Mus musculus with 3 samples.

Results

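Rhox5, Esx1 and Hmga1 are 3 of the 17551 genes in the deposited expression table, and all 3 were found in it. They were chosen by name because earlier results of these data placed them high in the deposited clusters 0, 2 and 7, so their height there describes the choice and is given without a test. The study prepared cells from 4 brains of female C57BL/6 mice aged 2 to 3 months. Some brains were naive and some bore established metastases about 2 weeks after E0771 cells, a mouse mammary carcinoma line, had been injected into the carotid artery. Immune cells were enriched on a Percoll gradient, so cluster sizes do not give the make-up of the tissue. Each brain was stained with 6 surface antibodies and its own hashtag antibody, and all brains were run as 1 pool in 3 libraries (cDNA, antibody tags and hashtags). The sources used here do not say which hashtag marks a naive or a metastatic brain. The brains are therefore named hashtag 1 to 4, their values are given side by side, and no comparison between conditions is made.

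Rhox5 and Esx1 encode homeodomain proteins, a class of DNA-binding transcription factors. Rhox5, first known as Pem, belongs to the reproductive homeobox (Rhox) cluster on the X chromosome, is normally restricted largely to testis, epididymis, ovary and extra-embryonic tissue, and is also known from many tumour lines. Esx1 is an X-linked homeobox gene of the placental trophoblast and of male germ cells. Hmga1 encodes an architectural protein that binds the minor groove of AT-rich DNA, is abundant in embryonic tissue and is often high in tumours. None of the 3 is a usual marker of adult brain cell types.

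The 300 bases around the start listed for Rhox5 and for Esx1 in the promoter annotation are shown. They were chosen because the genes had nearly the same order of clusters in these data while these windows differ in sequence. Both come from RefSeq on GRCm38.p6, run 5′ to 3′ on the gene's strand from 250 bases before the start to 50 after it, and have every CG in capitals. The Rhox5 window is chrX:37754358-37754657 on the plus strand, and the Esx1 window is chrX:137120277-137120576 on the minus strand.
Rhox5: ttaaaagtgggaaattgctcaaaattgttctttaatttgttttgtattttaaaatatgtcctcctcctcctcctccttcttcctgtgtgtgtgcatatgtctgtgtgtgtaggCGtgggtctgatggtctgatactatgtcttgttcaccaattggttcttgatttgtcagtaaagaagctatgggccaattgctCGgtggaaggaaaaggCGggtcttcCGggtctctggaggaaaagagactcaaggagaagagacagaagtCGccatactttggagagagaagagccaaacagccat
Esx1: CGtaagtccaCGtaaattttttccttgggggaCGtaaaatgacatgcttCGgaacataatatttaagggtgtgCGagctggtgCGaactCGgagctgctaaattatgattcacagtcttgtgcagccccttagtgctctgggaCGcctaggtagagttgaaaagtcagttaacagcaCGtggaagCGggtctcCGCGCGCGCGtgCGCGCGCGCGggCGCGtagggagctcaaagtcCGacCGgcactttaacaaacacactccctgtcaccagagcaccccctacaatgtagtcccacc
The Rhox5 window held 5 CG and the Esx1 window 24, against a median of 7 over 32851 promoter windows of the same length. The Hmga1 window (chr17:27556324-27556623, plus strand, 1 of 2 start entries) held 40. The motif CCGGAAG, a core recognised by ETS-family factors, was searched on both strands. It occurred once in the Rhox5 window, on the reverse strand from base 217, and not in the others, against 8.86% of all windows with a match. The GC box GGGCGG, known as a binding motif of Sp1, was found 2 times on each strand of the Hmga1 window and not in the other windows, against 35.7% of all windows. The reads lie at the 3′ end of transcripts and do not show which start was used. The gene bodies were annotated at chrX:37754608-37808878 for Rhox5, chrX:137115397-137122131 for Esx1 and chr17:27556574-27563672 for Hmga1, and all are protein-coding. The Esx1 window lies inside this gene body and does not reach its 5′ end on the minus strand, at 137122131. Its CG and motif counts therefore belong to the listed start only.

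The table held 4668 cells in 11 clusters, with 2495 to 43038 UMIs (unique molecules counted) per cell and a median of 9472. For hashtags 1 to 4 the median depth was 4370.5, 5599.5, 12450 and 12806 UMIs. Clusters 0, 2 and 7 held 2176 cells, of which 94, 44, 785 and 1253 came from these brains, so values of the hashtag 1 and 2 brains there rest on few cells. The deposited clusters carry no cell type names. Of 15 mammary carcinoma markers in the table, 5 were seen in at least 5% of the cells of a cluster. Krt8, an epithelial keratin, was at 2.94 UMIs per 10000 in clusters 0, 2 and 7 and 1.24 in the other clusters, while its usual partner Krt18 was at 0.080 and 0.792, and Epcam at 0.003 and 0.033. By the fold rule described below, in the hashtag 3 and 4 brains Krt8 was 1 of 5 higher (0.558% of all genes) and Krt18 1 of 5 lower (6.99%). With so few markers detected, clusters 0, 2 and 7 are called by their numbers here.

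Rhox5 was detected in nearly every cell of clusters 0, 2 and 7. A Rhox5 UMI was present in 95.5% of the 1186 cells of cluster 0, 92.0% of the 778 cells of cluster 2 and 91.0% of the 212 cells of cluster 7. Over the 3 clusters 93.8% of cells had one, at a mean of 8.61 Rhox5 UMIs per positive cell and a maximum of 37. Of the 20274 Rhox5 UMIs in the table, 86.7% lay in these clusters, which held 68.5% of all UMIs. The summed level was 5.09 Rhox5 UMIs per 10000 (exact Poisson 95% interval 5.02 to 5.17) against 1.69 (1.63 to 1.76) in the other clusters. Here and below, intervals cover counting error only and not the spread between animals. By brain, the Rhox5 level in clusters 0, 2 and 7 was 3.36, 3.41, 5.37 and 5.02 per 10000 for hashtags 1 to 4. In the other clusters of the same brains it was 0.768, 0.739, 1.81 and 2.56, so Rhox5 was higher in clusters 0, 2 and 7 in each brain, and the lowest of these values lay above the highest outside.

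Esx1 was distributed much like Rhox5. It was detected in 93.6%, 89.6% and 87.3% of the cells of clusters 0, 2 and 7 and in 91.5% of them together, with up to 42 UMIs in a cell. Of its 17409 UMIs, 87.5% lay in these clusters. Its level was 4.41 UMIs per 10000 (4.34 to 4.48) against 1.37 (1.31 to 1.43) in the other clusters. For hashtags 1 to 4 the Esx1 level was 2.94, 2.56, 5.37 and 3.89 per 10000 in clusters 0, 2 and 7 and 0.739, 0.418, 1.65 and 1.93 outside them. Again each brain's value in clusters 0, 2 and 7 exceeded every value outside them.

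Hmga1, whose product shapes chromatin rather than reading a specific sequence, was detected in 93.8%, 90.5% and 87.7% of the cells of clusters 0, 2 and 7. Its level was 3.60 UMIs per 10000 (3.54 to 3.66) there and 1.23 (1.18 to 1.29) in the other clusters. For hashtags 1 to 4 it was 2.29, 1.73, 4.27 and 3.26 per 10000 in clusters 0, 2 and 7, and 0.501, 0.372, 1.51 and 1.82 outside. The hashtag 2 value of 1.73 lay below the 1.82 measured outside these clusters in the hashtag 4 brain, so the ranges overlapped for Hmga1.

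A fold rule placed these values among all genes. A gene met it when log2 of (mean UMIs per 10000 + 0.1) was at least 1 higher in clusters 0, 2 and 7 than in the other clusters of the same brain, in each of the 4 brains. Of 11818 genes seen in at least 5% of the cells of a cluster, 22 met it (0.186%), and Rhox5, Esx1 and Hmga1 were among them. Nothing is read from this count, since the contrast served to choose the genes. The log2 differences for hashtags 1 to 4 were 1.67, 1.5, 1.81 and 1.25 for Rhox5. They were 1.76, 1.69, 2.1 and 1.34 for Esx1, and 1.68, 1.37, 1.76 and 1.2 for Hmga1. All these values exceeded 1 and were smallest in the hashtag 4 brain, whose other clusters held the highest levels of the 3 genes. With a pseudocount of 1 in place of 0.1, none of the 3 genes met the rule in all brains, and with only cells whose own hashtag gave 80% or more of the hashtag counts, Hmga1 fell short in the hashtag 2 brain (log2 difference 0.86).

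**Figure D1:**
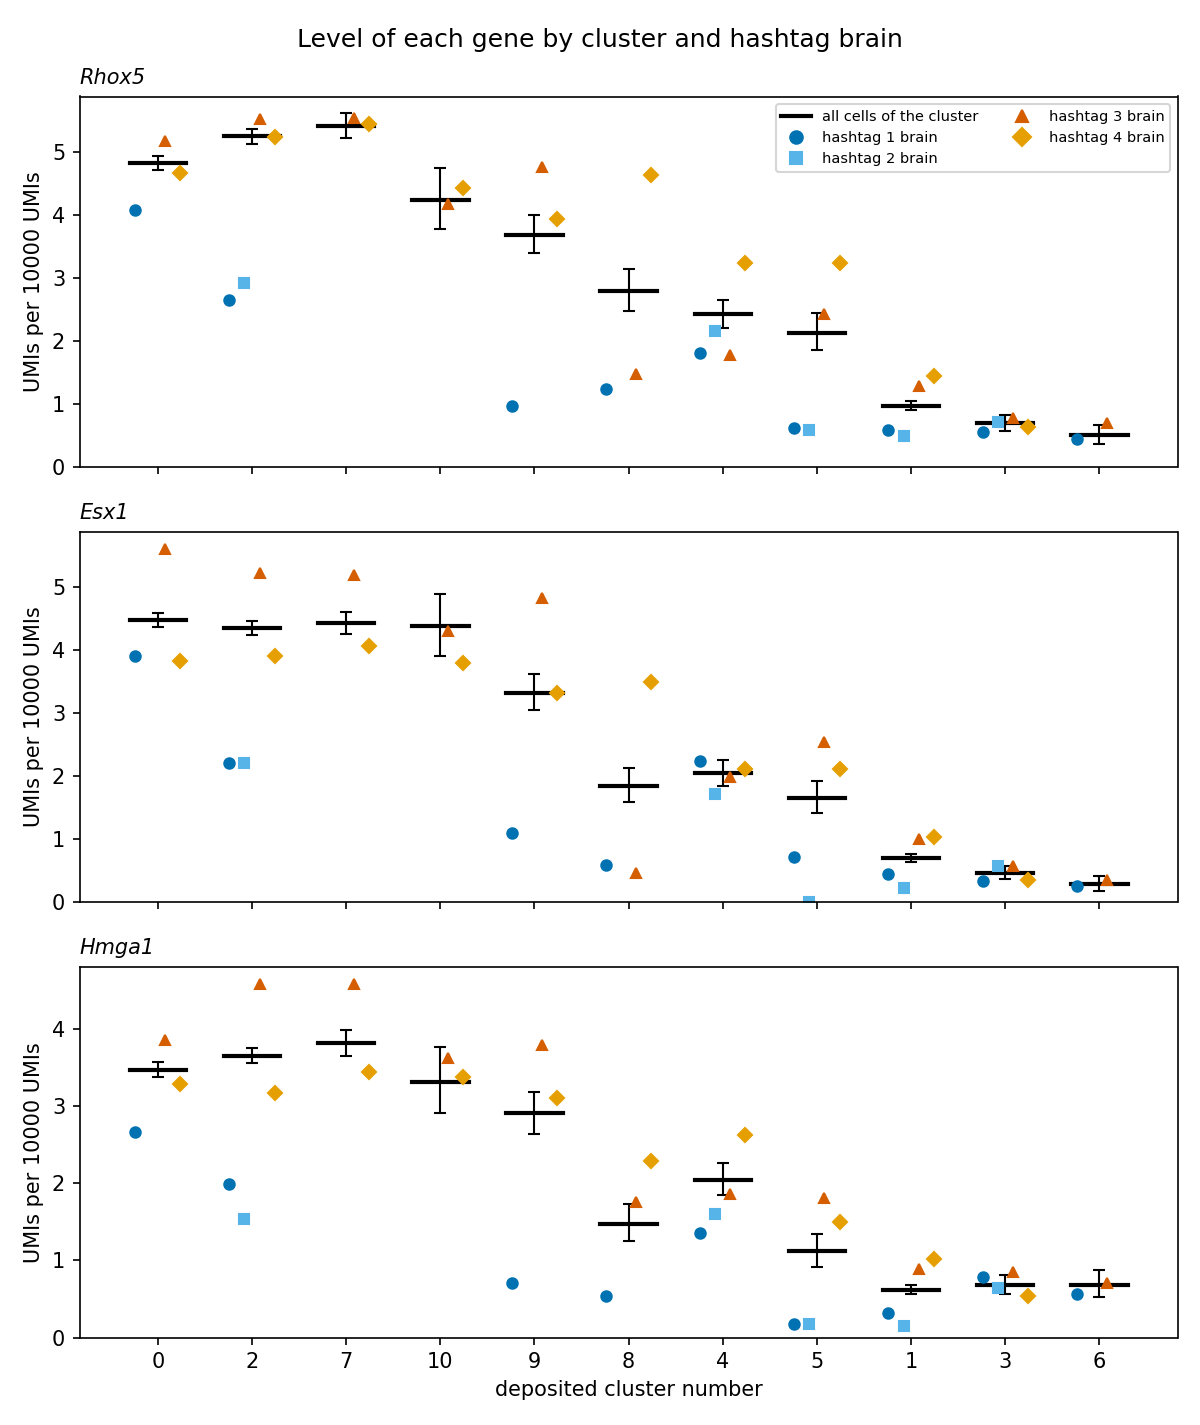
Level of Rhox5, Esx1 and Hmga1 (UMIs per 10000 UMIs, vertical axis) in the 11 deposited clusters (horizontal axis); black bars are all cells of a cluster with the exact Poisson 95% interval, and coloured points are the brains with at least 20 cells there. Clusters 0, 2, 7 and 10 have the highest Rhox5 and Esx1 levels and clusters 1, 3 and 6 the lowest. In clusters 2, 5, 8 and 9 the brains lie far apart.

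The levels formed a graded order over clusters, as the plot of levels by cluster shows. For Rhox5 the order was cluster 7 at 5.42 UMIs per 10000, 2 at 5.25, 0 at 4.83, 10 at 4.23, 9 at 3.68, 8 at 2.80, 4 at 2.42, 5 at 2.13, 1 at 0.976, 3 at 0.700 and 6 at 0.511. The counting intervals of neighbours overlapped between clusters 7 and 2, between 0, 10 and 9, between 8, 4 and 5, and between 3 and 6. For Esx1, clusters 0, 7, 10 and 2 could not be put in order (4.47, 4.42, 4.37 and 4.34 per 10000, with overlapping intervals), followed by 9 (3.32), 4 (2.04), 8 (1.85), 5 (1.65), 1 (0.701), 3 (0.463) and 6 (0.288). Hmga1 had clusters 7, 2, 0 and 10 at the top (3.81, 3.65, 3.47 and 3.31), then 9 (2.90), 4 (2.04), 8 (1.48) and 5 (1.12), and clusters 3, 6 and 1 at the bottom (0.682, 0.682 and 0.616) with overlapping intervals.

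Cluster 10 was the cluster outside 0, 2 and 7 that came nearest to them. Of its 117 cells, 82.9% had a Rhox5 UMI, 81.2% an Esx1 UMI and 76.9% an Hmga1 UMI, at a median depth of 6274 UMIs. In the hashtag 3 and 4 brains, which held 40 and 68 of these cells, its Rhox5 level was 4.18 and 4.42 per 10000, its Esx1 level 4.30 and 3.78, and its Hmga1 level 3.62 and 3.38. These brains lay close together for all 3 genes. The hashtag 1 brain, with only 8 cells there, lay apart from them, at 2.78 for Rhox5, 11.4 for Esx1 and 1.01 for Hmga1. A single cell held 32 of its 45 Esx1 UMIs there. These 45 are part of the 314 UMIs behind the pooled Esx1 level of cluster 10 (4.37 per 10000).

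In clusters 9, 8 and 5 the level differed between brains. It also did so in cluster 2, where Rhox5 was at 2.65, 2.92, 5.52 and 5.23 per 10000 for hashtags 1 to 4. Cluster 1 had Rhox5 at 0.590, 0.496, 1.29 and 1.44. In cluster 9, Rhox5 was at 0.972 per 10000 in the hashtag 1 brain, 4.76 in hashtag 3 and 3.93 in hashtag 4. In cluster 8 it was at 1.25, 1.48 and 4.63 in the same brains. In cluster 5 it was at 0.627 and 0.595 in the hashtag 1 and 2 brains against 2.42 and 3.24 in hashtags 3 and 4. Esx1 went the same way, from 1.10 to 4.81 and 3.32 in cluster 9 and from 0.595 and 0.472 to 3.49 in cluster 8, and in cluster 5 of the hashtag 2 brain it had no UMI in 29 cells. A count of 0, read as up to 3, allows a share of up to 10.3% of cells with an Esx1 UMI at this depth (median 3864 UMIs), which does not limit the cells that express it. Whether the clusters hold the same kinds of cells in each brain was not tested.

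Free RNA in the droplets can put UMIs into cells that do not make a gene, and it was not measured itself. Hmga1 values of the immune clusters 3 and 6 are given beside the others and are not read as background. For Rhox5 and Esx1, these immune clusters served as a stand-in for background. Their median CD45 tag counts, the pan-leukocyte surface antigen, were 7090 and 2908, against 47 in clusters 0, 2 and 7. Of their 627 cells (median 3753 UMIs), 22.6% had a Rhox5 UMI, 13.6% an Esx1 UMI and 21.2% an Hmga1 UMI, against 93.8%, 91.5% and 92.0% in clusters 0, 2 and 7 (median 14945 UMIs). Every cell was then thinned at random to 2495 UMIs, the lowest total of any cell, so no cell was left out. At this equal depth, 65.9% of the cells of clusters 0, 2 and 7 had a Rhox5 UMI, 59.4% an Esx1 UMI and 53.4% an Hmga1 UMI. The immune clusters were at 13.2%, 7.34% and 14.8%, and the other clusters together at 20.9%, 16.5% and 15.9%. Cluster 1, 880 cells with high levels of the choroid plexus gene Ttr, was at 14.7%, 10.2% and 7.84%. For Rhox5 its thinned shares were 11.7%, 8.25%, 18.2% and 22.3% for hashtags 1 to 4, and those of the immune clusters 9.38%, 20.9%, 17.7% and 11.4%. For Esx1 they were 8.59%, 4.37%, 11.05% and 17.8% in cluster 1 and 8.85%, 11.6%, 6.63% and 5.69% in the immune clusters. Cluster 1 lay above the immune clusters beyond the counting intervals in the hashtag 4 brain (16.7% to 28.6% against 7.43% to 16.5% for Rhox5, and 12.8% to 23.8% against 2.97% to 9.72% for Esx1), and the intervals overlapped in the other 3 brains. Cluster 10 was at 59.8%, 59.8% and 53.0%. Its Rhox5 share was lower than those of clusters 0, 2 and 7 (65.6%, 65.8% and 68.4%), but its counting interval (50.4% to 68.8%) held all of them. Its Esx1 and Hmga1 shares lay within the ranges of these clusters.

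**Figure D2:**
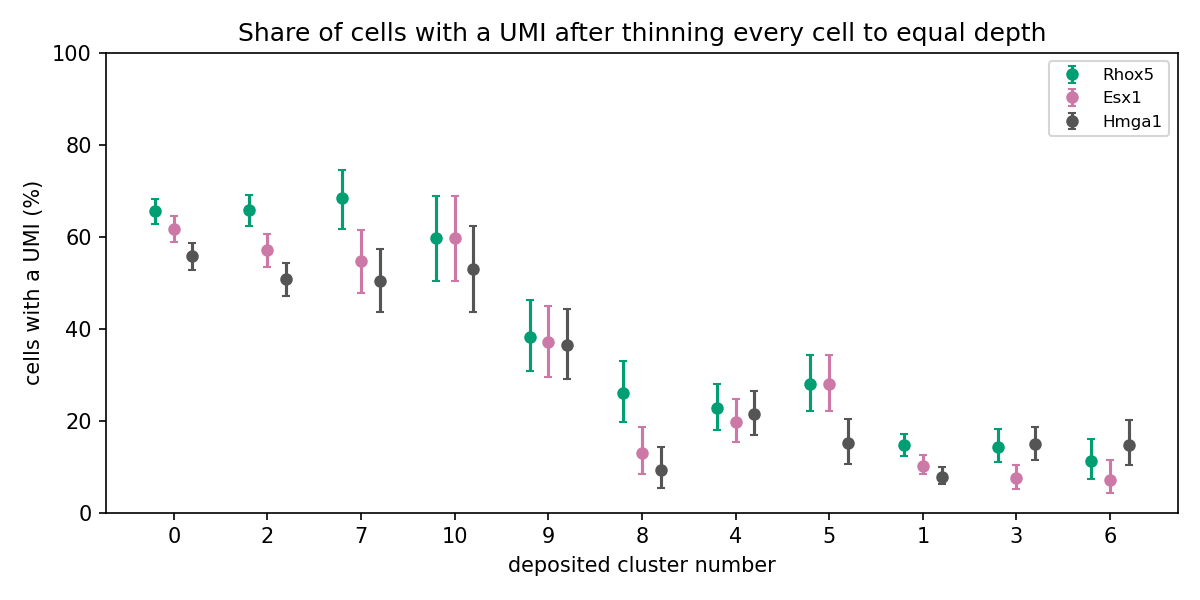
Share of cells with at least 1 UMI of Rhox5, Esx1 or Hmga1 (percent, vertical axis) in each deposited cluster (horizontal axis) after every cell was thinned to 2495 UMIs; bars are exact binomial 95% intervals. Clusters 0, 2, 7 and 10 lie above 50%, cluster 9 near 37%, and clusters 1, 3 and 6 below 15%.

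Pooled over brains, the mix of the 3 transcripts in the immune clusters differed from that in clusters 0, 2 and 7. There were 0.63 Esx1 UMIs per Rhox5 UMI (95% interval 0.49 to 0.81) in clusters 3 and 6, against 0.87 (0.85 to 0.89) in clusters 0, 2 and 7. Hmga1 went the other way, with 1.08 UMIs per Rhox5 UMI (0.87 to 1.34) against 0.71 (0.69 to 0.72). These pooled intervals do not overlap for either gene. By brain, the Esx1 ratio was 0.595, 0.727, 0.705 and 0.567 in the immune clusters of hashtags 1 to 4, against 0.874, 0.75, 1.0 and 0.776. That of Hmga1 was 1.297, 1.09, 1.07 and 0.95, against 0.681, 0.508, 0.795 and 0.65. The direction was thus the same in each brain, but the Esx1 intervals overlapped in all 4 brains. The Hmga1 intervals were apart only in hashtag 1 (0.83 to 2.05 against 0.56 to 0.82). By brain, the immune level of Rhox5 was 0.457, 0.659, 0.776 and 0.662 per 10000 for hashtags 1 to 4, and that of Hmga1 was 0.593, 0.719, 0.827 and 0.629. That of Esx1 was 0.272, 0.479, 0.547 and 0.375.

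Most cells of clusters 0, 2 and 7 carried all 3 transcripts at once. All 3 were detected in 1915 of the 2176 cells (88.0%, exact binomial 95% interval 86.6% to 89.3%), 2 of the 3 in 123 cells, 1 in 45 cells and none in 93 cells. The 93 cells without any of them differed from the rest in other readouts. Their median depth was 4078 UMIs against 15491 in the cells with all 3, their median mitochondrial share 11.7% against 1.24%, and their Ttr level 2586 against 105 UMIs per 10000. Krt8 was at 0.49 per 10000 in the cells without the 3 genes and 2.99 in the cells with all of them, and the cell's own hashtag made up a median of 71.9% of hashtag counts against 93.4%. The part of depth, RNA quality and choroid plexus RNA in these missing transcripts was not tested. In cells of clusters 0, 2 and 7 with fewer than 5000 UMIs, Rhox5 was seen in 18.3% of 93 cells. It was seen in 75.3% of 170 cells with 5000 to 10000 UMIs, 98.9% of 1458 cells with 10000 to 20000, and 100% of 455 cells above that. Cells of cluster 1 in the same depth ranges had Rhox5 in 16.7%, 31.7% and 66.5% up to 20000 UMIs.

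**Figure D3:**
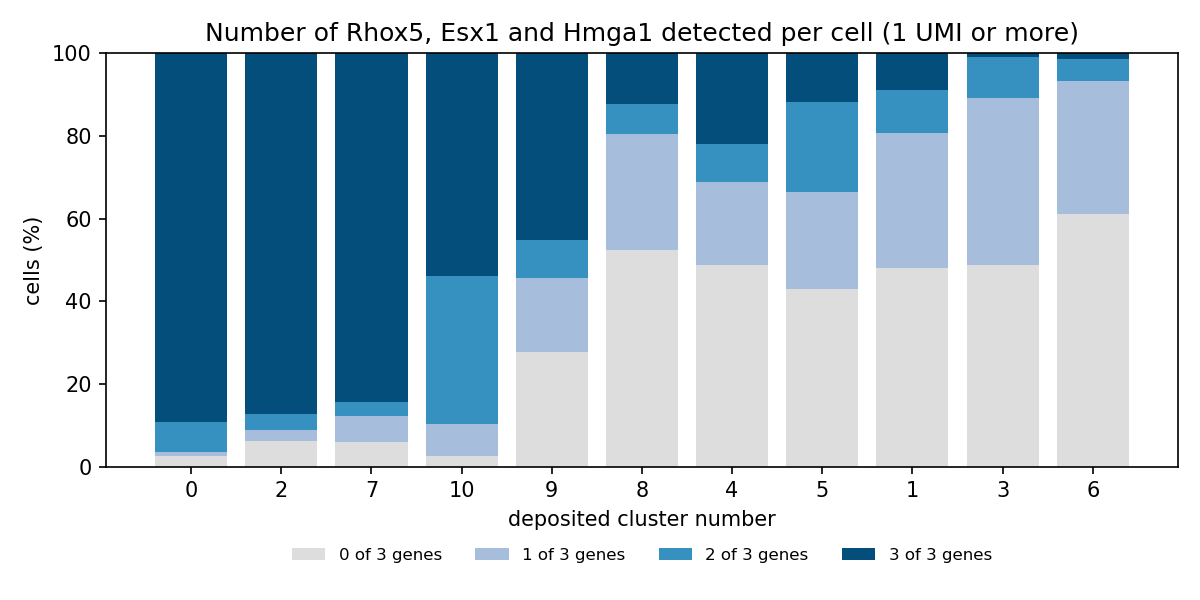
Share of cells (percent, vertical axis) with 0, 1, 2 or 3 of Rhox5, Esx1 and Hmga1 detected by at least 1 UMI, stacked to 100% for each deposited cluster (horizontal axis), at full depth. Cells with all 3 make up 88.0% of clusters 0, 2 and 7 together and 53.8% of cluster 10, and 0.99% and 1.35% of the immune clusters 3 and 6.

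The brains differed in how often the 3 genes were seen together. All 3 were present in 36 of 94 cells (38.3%) of clusters 0, 2 and 7 in the hashtag 1 brain and 12 of 44 (27.3%) in hashtag 2. In the hashtag 3 and 4 brains they were present in 727 of 785 (92.6%) and 1140 of 1253 (91.0%). The cells with all 3 were alike in depth in the 4 brains, with medians of 13824, 16335.5, 15760 and 15329 UMIs, and in Krt8, at 2.49, 2.95, 2.81 and 3.11 per 10000. They were not alike in their hashtags: the median share from the own hashtag was 67.5% and 60.5% in hashtags 1 and 2 and 90.4% and 95.3% in hashtags 3 and 4. Droplets with 2 hashtags were not removed here, and their part in these cells of the hashtag 1 and 2 brains was not tested. Among cells whose own hashtag gave 80% or more of the counts, the Rhox5 level in clusters 0, 2 and 7 was 2.54 (32 cells), 3.21 (8 cells), 5.39 (601 cells) and 5.03 (1088 cells) per 10000 for hashtags 1 to 4. Among cells with at most 10% mitochondrial RNA it was 4.27 (51 cells), 4.83 (19 cells), 5.39 and 5.03, so the gap between brains was smaller there.

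At equal depth, the genes met in the same cells of clusters 0, 2 and 7 about as often as the product of their shares. After thinning, Rhox5 and Esx1 were seen together in 42.6% of cells, and the product of their single shares, the value for independent detection, was 40.2% when taken within each brain and cluster, a ratio of 1.06. The ratio was 1.03 for Rhox5 with Hmga1 and 1.01 for Esx1 with Hmga1. In each of clusters 0, 2 and 7 of the hashtag 3 and 4 brains, thinned Rhox5 and Esx1 counts had Spearman correlations of 0.080 to 0.202. Those of Rhox5 with Hmga1 were -0.016 to 0.109, and those of Esx1 with Hmga1 -0.080 to 0.064. Thinned means were only 0.67 to 1.49 UMIs per cell, so a ratio near 1 does not show independence. The variance of the thinned counts was 0.90 to 1.57 times their mean in the 3 clusters of the hashtag 3 and 4 brains, where independent counting gives 1. Outside these clusters the pairs were found together more often than the product. Rhox5 and Esx1 met in 3.41% of cluster 1 cells against a product of 1.74%, in 9.83% of cluster 4 cells against 5.0%, and in 24.1% of cluster 9 cells against 17.2%. In cluster 10 the ratio was 1.07 and in cluster 3, with 3 such cells, 0.66.

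Outside clusters 0, 2 and 7, 336 of 2492 cells (13.5%) carried all 3 genes. They numbered 24, 10, 99 and 203 in the brains with hashtags 1 to 4. Their median depth was 13122.5 UMIs, against 4128 in the 1141 cells with none of the genes. Krt8 was at 2.57 per 10000 in them and 0.59 in the cells with none, and Ttr at 488 against 2263. In cluster 4, a cluster with the endothelial gene Cldn5, the 65 cells with all 3 had Cldn5 at 3.39 per 10000 and a median of 13380 UMIs, while the 144 cells with none had Cldn5 at 31.4 and 3152 UMIs. In cluster 9, a cluster with the smooth muscle gene Acta2, the 73 cells with all 3 had Acta2 at 6.63 against 23.7 in the 45 cells with none. In clusters 4, 5, 8, 9 and 10 the cells with all 3 genes had Krt8 at 2.63, 3.30, 2.95, 3.08 and 2.37 per 10000, near the 2.99 of clusters 0, 2 and 7. In cluster 1 the 78 cells with all 3 held 2.02 Krt8 and 1383 Ttr UMIs per 10000. No doublet caller was run, and droplets of 2 cells or misplaced cells cannot be told apart here from expression of the 3 genes in other cell types.

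In clusters 0, 2 and 7, Esx1 differed more between the hashtag 3 and 4 brains than Rhox5 did. In cluster 0 Esx1 was at 5.59 UMIs per 10000 in hashtag 3 and 3.82 in hashtag 4, in cluster 2 at 5.22 and 3.91, in cluster 7 at 5.18 and 4.05, and in cluster 9 at 4.81 and 3.32. The hashtag 3 value was the higher in each of these clusters. Rhox5 was at 5.17 and 4.66 in cluster 0, 5.52 and 5.23 in cluster 2, 5.53 and 5.43 in cluster 7, and 4.76 and 3.93 in cluster 9. Esx1 was higher in hashtag 4 in cluster 8 (0.472 and 3.49), cluster 4 (1.98 and 2.12) and cluster 1 (1.0 and 1.04). Over clusters 0, 2 and 7 there were 1.0 Esx1 UMIs per Rhox5 UMI (95% interval 0.97 to 1.03) in hashtag 3 and 0.78 (0.75 to 0.80) in hashtag 4, and 0.80 (0.77 to 0.82) and 0.65 (0.63 to 0.67) Hmga1 UMIs per Rhox5 UMI. With each brain measured once, counting intervals do not cover variation between animals, and no test is possible.

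By a rule added after these values were seen, at least 1.2-fold higher in hashtag 3 than in hashtag 4 in each of clusters 0, 2 and 7 after adding 0.1 per 10000, 112 of the 11818 genes were called (0.948%), and 191 (1.62%) were called in the opposite direction. Esx1 was called, at folds of 1.45, 1.33 and 1.27. Rhox5, at 1.11, 1.05 and 1.02, and Hmga1, at 1.17, 1.43 and 1.32, were not. The cut-off lay between the lowest folds of Hmga1 and Esx1, and Hmga1 had the larger fold in clusters 2 and 7. The rule therefore does not set Esx1 apart from Hmga1. Among the 849 genes with at least 5000 UMIs in these clusters, 9 were called higher and 22 lower. In cells whose own hashtag gave 80% or more of the tag counts, Esx1 was at 5.41 and 3.91 per 10000 in the 2 brains.

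The Rhox family gave a further view of the Rhox5 locus. Of 42 Rhox genes in RefSeq, 12 were in the table and 6 passed the detection filter: Rhox1, Rhox2d, Rhox2g, Rhox2h, Rhox5 and Rhox7b. Rhox5 was the 1 of these to meet the fold rule in all 4 brains, and Rhox1 and Rhox2d met it with Rhox5 in the hashtag 3 and 4 brains, where 66 of 11818 genes met it (0.558%). Rhox1, a homeobox gene of the same cluster, was at 0.871 UMIs per 10000 in clusters 0, 2 and 7 and 0.287 outside. Its values in clusters 0, 2 and 7 were 0.696, 0.625, 0.891 and 0.869 for hashtags 1 to 4, all above the 0.146, 0.124, 0.284 and 0.441 outside. Rhox2d was at 0.343 and 0.103, Rhox2g at 0.329 and 0.117, and Rhox2h at 0.629 and 0.217. The Rhox2 genes are near-identical copies, so how reads were split among them is uncertain. In clusters 0, 2 and 7, another Rhox gene was detected in 92.2% of the 2042 cells with a Rhox5 UMI and in 18.7% of the 134 cells without one, and the latter include most of the shallow cells described above. In cluster 10 it was detected in 70 of the 97 cells with a Rhox5 UMI and 4 of the 20 without.

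Genes near Rhox5 were counted in the same way. Of 31 genes in the table within 1000 kb of Rhox5, 20 passed the filter. Apart from Rhox5 itself, none met the fold rule in 4 brains, against 0.186% of all genes. With so few genes at so low a share, this count could not set the neighbours apart. In the hashtag 3 and 4 brains, Rhox1 and Rhox2d met it with Rhox5, against 0.558% of all genes. Ndufa1, Lamp2, Cul4b and C1galt1c1 were at least 2-fold lower there, against 6.99% of all genes. The neighbours on one side, Rpl39 and Ndufa1, which encode a ribosomal and a respiratory chain protein, were at 18.1 and 1.74 UMIs per 10000 in clusters 0, 2 and 7 and 14.6 and 5.84 outside. Lamp2, a lysosomal membrane gene on the other side, was at 0.571 and 2.48. Around Esx1, 12 of 18 genes passed the filter, and none but Esx1 met the rule, again near the share of all genes. Of these 12, Tceal8 was at least 2-fold lower in the hashtag 3 and 4 brains. The Esx1 neighbours Morf4l2 (3.17 and 2.19 per 10000) and Fam199x (0.114 and 0.214) were called in neither direction. These neighbours were picked as examples after their values were seen.

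**Figure D4:**
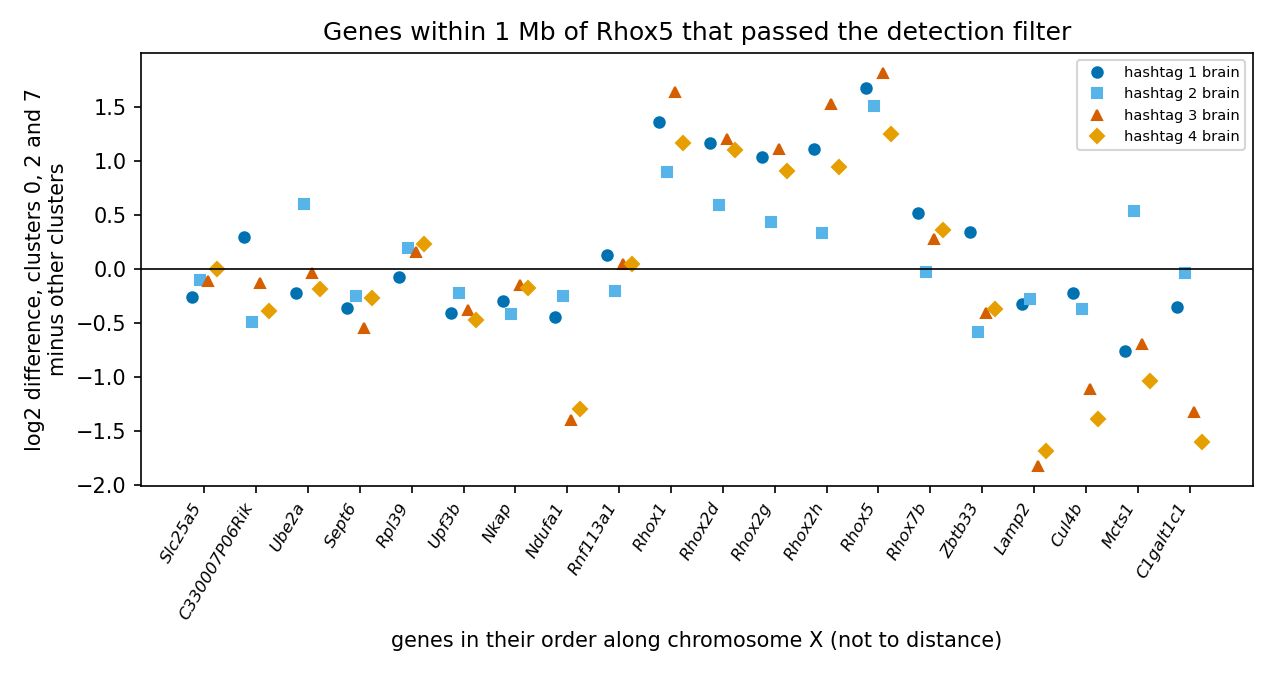
Log2 difference of mean UMIs per 10000 (plus 0.1) between clusters 0, 2 and 7 and the other clusters (vertical axis) in each hashtag brain, for the 20 genes within 1000 kb of Rhox5 that passed the detection filter, in chromosomal order (horizontal axis). Rhox1, Rhox2d, Rhox2g, Rhox2h and Rhox5 lie above 0 in all 4 brains, and the genes that flank the Rhox block lie near or below 0 with brains scattered on both sides for several.

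Of 19 trophoblast genes in the table, 8 passed the filter. None met the fold rule in 4 brains, near the 0.186% of all genes, and the median log2 difference was 0.05 against -0.07 over all 11818 genes. Krt8 and Phlda2, an imprinted gene that limits placental growth, met it in the hashtag 3 and 4 brains (2 of 8, against 0.558% of all genes), and Krt18 was at least 2-fold lower there (1 of 8, against 6.99%). Phlda2 was at 0.712 UMIs per 10000 in clusters 0, 2 and 7 and 0.241 outside, and by brain at 0.248, 0.455, 0.499 and 0.871 in clusters 0, 2 and 7. Plet1, a trophoblast stem cell surface gene, was at 0.166 and 0.053, with 0.064 in hashtag 3 and 0.239 in hashtag 4. Cited2, a transcriptional co-regulator, was at 0.686 and 0.582. Of 18 cancer-testis and germline genes in the table, 5 passed and none met the rule in 4 brains, near the 0.186% of all genes. Xlr3c, an X-linked germline gene, met it in hashtags 3 and 4 (1 of 5, against 0.558% of all genes), at 0.267 and 0.075 per 10000 over all brains, while Nxf3 was at 0.104 and 0.038, Tdrd1 at 0.058 and 0.024 and Xlr3a at 0.035 and 0.014.

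All 10 genes of the high mobility group list passed the filter. Apart from Hmga1, chosen on this contrast, none met the fold rule in 4 brains, near the 0.186% of all genes. In the hashtag 3 and 4 brains, 1 of the 10 was at least 2-fold lower, against 6.99% of all genes. The summed level of the list was 24.4 UMIs per 10000 in clusters 0, 2 and 7. It was 24.8 in cluster 10 and 48.0 in the immune cluster 6. Hmgb1, a DNA-bending protein, was at 8.97 UMIs per 10000 in clusters 0, 2 and 7 and 6.00 outside, Hmgn1, a nucleosome-binding protein, at 4.14 and 2.43, and Hmgb2 at 4.19 and 3.34. Hmga2, the closest relative of Hmga1 and named here after its values were seen, was at 0.447 and 0.165, with log2 differences of 1.40, 1.27, 1.28 and 0.77 for hashtags 1 to 4. Of 16 DNA methylation genes that passed the filter, out of 17 in the table, none met the fold rule in either direction in 4 brains, near the 0.186% and 0.558% of all genes. Dnmt1, the maintenance methyltransferase, was at 0.506 and 0.333, Hells, a chromatin remodeller needed for methylation, at 0.587 and 0.269, Mbd3 at 0.937 and 0.694 and Trim28 at 0.533 and 0.365. None of the 24 cell cycle genes of the S and G2M list met the rule for higher genes either, again near 0.186%. Their median log2 difference was 0.60, against -0.07 over all 11818 genes, with Birc5 at 2.39 and 1.01 and Ube2c at 1.59 and 0.652.

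Markers of other cell types were counted in the same way. Of the 15 immune markers, 3 were at least 2-fold lower in clusters 0, 2 and 7 in all 4 brains, and 13 in hashtags 3 and 4, against 0.558% and 6.99% of all genes. For the 7 choroid plexus markers the counts were 0 and 6, with Ttr at 152 and 1657 UMIs per 10000. For 7 endothelial markers they were 4 and 5, for 6 mural markers 4 and 4, for 6 fibroblast markers 1 and 3, for 5 astrocyte markers 0 and 1 and for 2 erythroid markers 1 and 1. None of the oligodendrocyte, neuron and ependymal markers that passed the filter, 2 of each list, was called in either set of brains. No marker of these lists was called higher in clusters 0, 2 and 7.

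The genes whose cluster means were most like those of Rhox5, by Pearson correlation of log2(mean UMIs per 10000 + 0.1) over the 11 clusters, were Pcna-ps2 (0.996), Akr1b8 (0.992), Rhox1 (0.992), Mrpl38 (0.990), Oaf, Crmp1, Galk1, Fkbp11, Cisd3 and Fosl1 (0.986). For Esx1 they were Pcna-ps2 (0.995), Oaf (0.992), Crmp1 (0.992), Atad3a, Rhox2h, Drap1, Fosl1, Fbxo17, Mrpl38 and Dusp9 (0.988). The lists shared 5 genes. Rhox5 and Esx1 correlated at 0.994 with each other, and Hmga1 at 0.930 with Rhox5 and 0.944 with Esx1. The clusters share 1 library and differ in depth, so these values describe a likeness over 11 points only. The ranking was sensitive to the measure: with Spearman correlation 1 of the 10 genes most like Rhox5 was retained, and over cluster-by-brain points 2 were. For Esx1 the numbers were 4 and 1. Galk1, the first enzyme of galactose use, was at 1.90 and 0.894 UMIs per 10000 in and outside clusters 0, 2 and 7, Fosl1, an AP-1 transcription factor, at 1.38 and 0.540, and Akr1b8, an aldo-keto reductase, at 0.819 and 0.292. Pcna-ps2 is a copy of Pcna, with which it may share reads.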

How the data were processed

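The authors scaled each cell's UMIs to 10000, added 1 and took the natural log, as seen from the deposited values, which sum to 10000 per cell once unlogged. Their cell table, as deposited, lists the total UMI count, hashtag and antibody tag counts (CITE-seq-Count 1.3.4, per the series' design text), mitochondrial fraction, cluster, hashtag class, and a p-value and q-value the authors gave for each hashtag assignment, which were not used. Cell Ranger 2.1, Seurat 2.3.4 and mm10 are named in the submitters' processing notes; for filters and clustering, settings were not given in the sources used here.

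Whole UMIs were recovered by unlogging and multiplying by the deposited totals; 99.8% of nonzero values came out whole within 0.01, and summed counts lay within 10 of the deposited totals. A level is the summed UMIs of a gene over the summed UMIs of the cells, per 10000, with an exact Poisson 95% interval; shares have exact binomial (Clopper-Pearson) intervals. The fold rule used means over cells, as did the likeness of cluster patterns; the named genes were the 10 most alike for Rhox5 and Esx1 and up to 4 genes of each list with the highest mean in clusters 0, 2 and 7. The fold rule was tested on simulated data. Symbols were matched to RefSeq GRCm38.p6 (16620 of 17551). Values of 1 further gene are not reported here. No cell was removed, no doublet caller was run, and no barcode occurred more than once. The members and all gene lists were chosen with earlier results of these data known. Python 3.11.15, NumPy 2.4.6, SciPy 1.17.1, pandas 2.3.3 and matplotlib 3.10.9 were used. Alternatives covered thinning, hashtag purity, mitochondrial share, a 2-UMI cut-off, the pseudocount, leaving out each brain, and, added after seeing the data, the hashtag 3 and 4 brains alone.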

Additional observations from a re-analysis of the deposited data

How the results depend on the processing

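Thinning lowered the shares of cells with a UMI in clusters 0, 2 and 7 to 65.9% (Rhox5), 59.4% (Esx1) and 53.4% (Hmga1), those in the other clusters to 20.9%, 16.5% and 15.9%, and the share with all 3 genes from 88.0% to 24.4%. Thinned levels in clusters 0, 2 and 7 were 4.76, 4.30 and 3.34 per 10000, and means over cells 4.76, 4.2 and 3.39. With positive cells counted from 2 UMIs, the shares were 90.4%, 85.6% and 85.7%, outside 17.6%, 14.3% and 14.6%, and all 3 genes were in 76.1%. With the own hashtag at 80% or more, they were 96.4%, 94.3% and 95.1%, with 91.4% for all 3, and Hmga1 was seen in 31.8% of other cells. With mitochondrial RNA at most 10%, they were 97.3%, 95% and 96.0%, with 92.0% for all 3 and 30.7% for Hmga1 outside. In the hashtag 3 and 4 brains alone, they were 96.9%, 94.7% and 95.5%, outside 46.9%, 37.9% and 38.5%, and all 3 genes were in 91.6%. Leaving out each brain in turn gave shares of 89.5% to 95.8% (Rhox5), 87.8% to 93.5% (Esx1) and 87.6% to 94.1% (Hmga1), outside 31.2% to 43.1%, 21.5% to 33.1% and 20.8% to 33.1%, levels of 4.92 to 5.20, 3.83 to 5.16 and 3.20 to 4.09, and all 3 genes in 84.0% to 90.2%.

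The Rhox5 share by brain (51.1%, 45.5%, 96.6% and 97.0% for hashtags 1 to 4) became 28.7%, 29.5%, 69.7% and 67.7% after thinning. From 2 UMIs it was 40.4% for hashtag 1, 93.8% for hashtag 3 and 94.0% for hashtag 4. It was 37.5% in hashtag 1 and 98.0% in hashtag 3 with the own hashtag at 80% or more, and 86.3% and 73.7% in hashtags 1 and 2 with mitochondrial RNA at most 10%. The 22 genes that met the fold rule became 5 with a pseudocount of 1, 7 with the own hashtag at 80% or more, 66 in hashtags 3 and 4, and 23 to 40 leaving out a brain (39 without hashtag 2, 40 without hashtag 4). The 66 lower genes became 6 with a pseudocount of 1, 826 in hashtags 3 and 4, and 72 to 174 leaving out a brain (142 without hashtag 1, 174 without hashtag 2). No paired analysis was possible because the labels give the libraries no replicate numbers; the fold rule itself compares clusters within each brain. The hashtag 1 and 2 brains hold 94 and 44 cells of clusters 0, 2 and 7, which limits the precision of their values.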

Other observations

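Of 19 imprinted genes in the table, 13 passed the detection filter and none was called in all 4 brains, near the 0.186% (higher) and 0.558% (lower) of all genes. In the hashtag 3 and 4 brains, Phlda2 was at least 2-fold higher in clusters 0, 2 and 7 (1 of 13, against 0.558% of all genes), and Cdkn1c, Igf2, Impact, Mest, Peg3 and Snrpn were at least 2-fold lower (6 of 13, against 6.99%). Igf2, a fetal growth factor, was at 0.151 UMIs per 10000 in clusters 0, 2 and 7 and 1.53 outside. Cdkn1c, an inhibitor of cyclin-dependent kinases, was at 0.099 and 1.27. Choroid plexus RNA, at 152 and 1657 for Ttr, moved with these levels, and its part in them was not tested.

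The members were also split by the number of cell cycle UMIs in a cell. In clusters 0, 2 and 7 of the hashtag 4 brain, Esx1 was at 3.15 UMIs per 10000 (95% interval 2.93 to 3.39) in the 170 cells with no UMI of the S and G2M list. It was at 3.86 (3.75 to 3.97) in 733 cells with 1 to 4 such UMIs and 4.22 (4.07 to 4.39) in 350 cells with 5 or more. In the hashtag 3 brain the values were 5.02, 5.45 and 5.36. Rhox5 was at 4.85, 5.02 and 5.07 in the hashtag 4 brain and 5.0, 5.60 and 5.01 in hashtag 3. In the hashtag 1 brain, Esx1 was at 2.06 and 3.25 and Rhox5 at 2.0 and 3.75 in the 35 cells with none and the 47 cells with 1 to 4 such UMIs. The groups also differ in depth, with medians of 12599, 14328 and 17241.5 UMIs in the hashtag 4 brain, and the part of depth was not tested.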
